A study of Mus musculus with 36 samples.

Results

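Transcript levels were compared between the early night (ZT16) and the early day (ZT4) in kidneys of mice on normal chow. Zeitgeber time (ZT) is the number of hours since the lights came on, so mice were 4 h into darkness at ZT16 and 4 h into light at ZT4. The comparison takes all 3 ZT16 and all 3 ZT4 libraries of the chow table, chosen by their labels, which is 6 of the 36 libraries of the study. Of 24066 gene symbols with 1 row in that table, the 11174 with a mean of at least 1 FPKM over the 18 chow libraries were tested. FPKM divide a gene's fragments by transcript length and library size, so levels of different genes can be compared per length.

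All mice were male wild-type C57BL/6J, housed with 12 h light and 12 h dark per day and given food without restriction. The chow ZT16 group held replicates 1, 4 and 5, and the chow ZT4 group held replicates 2, 3 and 4, numbered as in the sample titles. High-fat diet groups of 3 libraries at ZT16 and 3 at ZT4 were used for 1 comparison. The design text gives 6 weeks of age at the start of the diets and the labels give 16 weeks for the harvest. The diet entry of each label mentions ZT3, a time that was not sampled, so the harvest times were read from the titles. The design text states 3 kidneys per time and diet. Nothing else records whether libraries come from separate mice, so p-values measure the spread between libraries of a group. In whole kidney RNA, fewer cells of a type and less RNA per cell cannot be told apart.

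The circadian clock is a feedback loop that runs in nearly every cell. The activators BMAL1 (gene Arntl), CLOCK and NPAS2 bind E-box sequences and drive the Per and Cry genes, whose proteins then repress the activators. A second loop links them to the REV-ERB repressors (Nr1d1, Nr1d2) and the ROR activators (such as Rora), which act on the Arntl promoter. In kidney the clock is known to drive daily cycles of transport and metabolism, and adrenal glucocorticoids, feeding and body temperature, which in mice rise around the night, add to these cycles.

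Other tissue was unevenly present in the 6 libraries. Cyp21a1, the adrenal steroid 21-hydroxylase, stood at 0.0330, 20.2 and 0.0279 FPKM in ZT16 replicates 1, 4 and 5, against 262, 163 and 0.240 FPKM in ZT4 replicates 2, 3 and 4. It was 1346 FPKM in chow ZT0 replicate 5 and at most 0.256 FPKM in the other libraries outside these 6. The 14 adrenal cortex markers summed to 75.5 to 170 FPKM at ZT16, against 94.0 to 951 FPKM at ZT4, and 5 of them (Cyp11a1, Cyp11b1, Cyp11b2, Hsd3b1, Nr5a1) were listed at 0 in at least 1 library. The chromaffin markers Th, Dbh and Pnmt were listed at 0 in all 3 ZT16 libraries and in ZT4 replicate 4. The 15 adipocyte markers summed to 1694 to 1989 FPKM at ZT16, against 2259 to 4111 FPKM at ZT4. Of them 10 were lower at ZT16 without overlap, where 12.8% of all tested genes were. The sum includes Pck1, which went the other way, at 919, 695 and 612 FPKM at ZT16, against 419.7, 288 and 307 FPKM at ZT4. The 5 lymphocyte markers summed to 1.29 to 1.77 FPKM at ZT16, against 2.13 to 2.73 FPKM at ZT4. Each of them was below the mean of 1 FPKM needed for testing. The 8 chromaffin markers summed to 72.7 to 88.4 FPKM at ZT16, against 96.7, 115.6 and 129.6 FPKM in ZT4 replicates 2, 3 and 4. This sum did not follow Cyp21a1 at ZT4, as it was highest in replicate 4. Th, Dbh and Pnmt were listed at 0 there, so the sum in that library came from the other chromaffin markers. Of these markers Ddc stood at 19.9, 16.85 and 16.7 FPKM at ZT16, against 25.4, 39.3 and 48.2 FPKM at ZT4. The summed thick ascending limb markers were higher at ZT16, at 963.6 to 1179 FPKM, against 701.6 to 927 FPKM. The sums of the other kidney, endothelial, macrophage, red blood cell, smooth muscle, urothelium and skeletal muscle markers overlapped. The 6 proximal tubule markers overlapped at 78300 to 85460 FPKM, against 64510 to 94290 FPKM. The slope of log2 level on transcript GC content, per 10 percentage points, was -0.19, -0.12 and -0.05 in ZT16 replicates 1, 4 and 5, against 0.41, 0.06 and -0.43 in ZT4 replicates 2, 3 and 4. Relative depth, read from the steps between low values, was 1.045, 0.860 and 1.239 at ZT16, against 0.994, 1.236 and 0.719 at ZT4. Absolute depth is unknown.

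**Figure D1:**
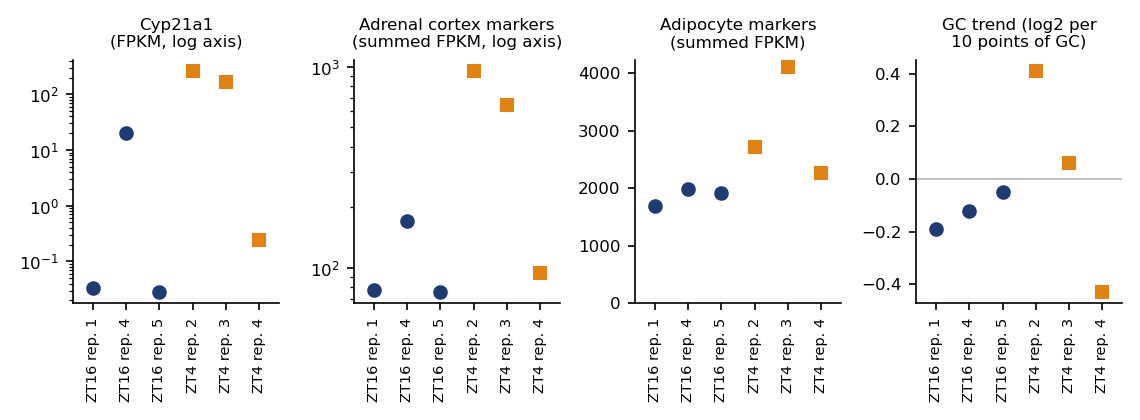
Cyp21a1 (FPKM, log axis), summed adrenal cortex markers (summed FPKM, log axis), summed adipocyte markers (summed FPKM) and the GC slope (log2 per 10 percentage points of GC) of each of the 6 libraries; circles are ZT16 and squares ZT4, and each point is 1 library. Cyp21a1 reached 20.2 FPKM in 1 ZT16 library, against 163 and 262 FPKM in ZT4 replicates 3 and 2. The GC slope ran from -0.43 to 0.41 over the 3 ZT4 libraries. The adipocyte sum includes Pck1, which was higher at ZT16.

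Of the 11174 genes, 94 (0.841%) were higher at ZT16 and 173 (1.55%) were lower, 267 in all (2.39%). The threshold was an adjusted p under 0.05 in limma's test with Benjamini-Hochberg adjustment. This test took its spread from all 18 chow libraries, and with the 6 libraries alone 14 genes passed. Outside the core clock, the largest rises among the genes named by rule were largely stress chaperones, glucocorticoid-responsive genes and acetyltransferase genes. Within the core clock, Per2 and Cry1 rose most, with log2 changes of 2.37 and 2.22, above those of the chaperones. The clock repressor Nr1d1 fell furthest of the named genes that passed, and Mt2, Cirbp and Col3a1 were among the other falls. At ZT16, 79 of the higher genes and 116 of the lower ones differed by at least 1.5-fold, and 31 and 25 by at least 2-fold. All 267 had values that did not overlap between the groups, which holds for 4.16% of tested genes in the higher and 12.8% in the lower direction. Lack of overlap in a called gene, as given below, therefore adds nothing to its call. The median over all tested genes was -0.05 on the log2 scale. The balance of directions moved with scaling, to 126 higher and 102 lower with median-ratio rescaling and to 146 and 111 with upper-quartile rescaling.

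The number of genes called changed when single libraries or the adrenal libraries were left out. Such fits also have fewer libraries in a group, and the cause of the changes was not tested. Without ZT16 replicate 1, 4 or 5 the count was 56, 61 or 127, and without ZT4 replicate 2, 3 or 4 it was 108, 150 or 1674. ZT4 replicate 4, whose absence gave the highest count, had the lowest GC slope and the lowest relative depth of the 6. Without the 4 chow libraries that held adrenal transcripts, 134 genes were called, 17 higher and 117 lower, and 26 of them were among the 267. That fit leaves ZT4 replicate 4 alone at its time and assumes that it varies like the other groups. With the Cyp21a1 level as a covariate 176 genes were called, and 143 of them were among the 267. Every one of the 267 kept its direction in these fits. Where libraries were only left out, this was fixed in advance, since no called gene overlapped between the groups. With the adipocyte marker level as a covariate 130 genes were called, 119 of them among the 267, and with GC correction 435, 225 of them among the 267. The part of relative depth in single genes was not tested.

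A group of 12 genes was called in each fit that left out 1 of the 6 libraries, without the adrenal libraries, with GC correction, and with the Cyp21a1 or adipocyte level as a covariate. The 4 higher at ZT16 were Hyou1, Manf, Creld2 and Hsph1, all chaperones or factors that act with them. The 8 lower included Nr1d1, Npas2, Ypel3, Col3a1, Polg2, Acp6 and 3010026O09Rik. Polg2, the accessory subunit of the mitochondrial DNA polymerase, stood at 3.10, 2.67 and 2.51 FPKM at ZT16, against 4.99, 4.27 and 6.22 FPKM at ZT4 (log2 change -0.79 ± 0.13, SE). Acp6, a lysophosphatidic acid phosphatase, stood at 19.1, 21.7 and 19.4 FPKM at ZT16, against 32.1, 32.5 and 30.3 FPKM at ZT4 (log2 change -0.65 ± 0.09, SE). Polg2, Acp6 and 3010026O09Rik fall outside the rule for named genes and are given because they passed these fits. In the 6 libraries alone, only Nr1d1, Ypel3 and Creld2 of the 12 passed. With the replicate number as a block, only Nr1d1 and Ypel3 did. Hyou1, Manf and Hsph1 had limma adjusted p of 0.0985, 0.0533 and 0.157 in the 6 libraries alone. A further 31 genes were called without each single library in turn, 43 in all, 22 higher and 21 lower.

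Of 14 tested core clock genes, 4 rose (Per2, Cry1 and Bhlhe40 among them), 2 fell (Nr1d1, Npas2) and 8 did not pass. Over all tested genes 0.841% rose and 1.55% fell. The median was 0.43, against -0.05 over all tested genes. Without ZT4 replicate 4, 7 rose and 2 fell, and without the adrenal libraries none rose and Nr1d1, Npas2 and Rora fell. Bhlhe41, a repressor of the activators, was below the level filter. Values below run over replicates 1, 4 and 5 at ZT16 and replicates 2, 3 and 4 at ZT4.

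Nr1d1, which encodes the repressor REV-ERB alpha (GRCm38 chr11:98767932-98775333, minus strand), stood at 4.17, 3.47 and 2.61 FPKM at ZT16, against 37.3, 41.1 and 26.0 FPKM at ZT4. All ZT16 values lay far below the lowest ZT4 value. The means were 3.42 ± 0.782 FPKM at ZT16 and 34.8 ± 7.84 FPKM at ZT4 (SD, n = 3 each), 10.2-fold lower at ZT16, with a log2 change of -3.17 ± 0.33 (SE, limma adjusted p = 0.000266). Nr1d1 passed the test under all 22 alternatives tried. Its paralog Nr1d2, which encodes REV-ERB beta, overlapped at 7.43, 6.32 and 5.28 FPKM, against 3.31, 6.20 and 14.1 FPKM, with a log2 change of -0.09 ± 0.35 (SE, limma adjusted p = 0.949).

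Per2, a repressor of the activators (chr1:91415982-91459324, minus strand), stood at 7.68, 5.74 and 5.15 FPKM at ZT16, against 0.643, 0.661 and 1.09 FPKM at ZT4. Cry1, its partner in repression (chr10:85131700-85185064, minus strand), stood at 4.04, 3.91 and 2.84 FPKM at ZT16, against 0.613, 0.272 and 0.262 FPKM at ZT4. For both genes the lowest ZT16 library was several times above the highest ZT4 library. Per2 was 7.77-fold higher at ZT16 by FPKM means, with a log2 change of 2.37 ± 0.35 (SE, limma adjusted p = 0.00358). Cry1 was 9.39-fold higher, with a log2 change of 2.22 ± 0.36 (SE, limma adjusted p = 0.00523). The pseudocount of 0.5 added before the logarithm makes these log2 changes smaller than the ratios of means. Without the adrenal libraries the log2 changes were 2.10 for Per2 (limma adjusted p = 0.0567) and 2.35 for Cry1 (limma adjusted p = 0.0570). Both stayed past the threshold without each single library.

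The other Per and Cry genes did not pass. Per1 stood at 5.09, 4.25 and 5.89 FPKM at ZT16, against 2.12, 2.41 and 2.31 FPKM at ZT4, without overlap (log2 change 0.99, limma adjusted p = 0.164). Cry2 stood at 5.82, 5.87 and 5.44 FPKM at ZT16, against 3.27, 3.31 and 3.596 FPKM at ZT4, also without overlap (log2 change 0.67, limma adjusted p = 0.0509). Per3 overlapped between the groups, with a log2 change of 0.71 (limma adjusted p = 0.0999).

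Rora, which encodes the activator ROR alpha, did not pass (log2 change 0.07), and its direction turned in 9 of the alternatives. Bhlhe40, a repressor that competes for E-boxes, stood at 31.4, 21.4 and 16.1 FPKM at ZT16, against 5.73, 7.43 and 15.2 FPKM at ZT4, with a log2 change of 1.30 ± 0.28 (SE, limma adjusted p = 0.0234). ZT4 replicate 4 came close to the lowest ZT16 value, and the call was lost without ZT16 replicate 1 or 4 or ZT4 replicate 2 or 3 (limma adjusted p between 0.0805 and 0.134).

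Among the activators, Npas2 stood at 0.354, 0.552 and 0.660 FPKM at ZT16, against 1.55, 1.36 and 1.95 FPKM at ZT4, with a log2 change of -1.06 ± 0.18 (SE, limma adjusted p = 0.00609). The night values were all below the lowest day value, although 1 FPKM is near the level filter. Arntl overlapped at 2.09, 2.81 and 2.99 FPKM, against 1.95, 2.07 and 2.70 FPKM (log2 change 0.19, limma adjusted p = 0.667). Clock overlapped too, with a log2 change of -0.03, and so did Ciart, a repressor, with 0.10.

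**Figure D2:**
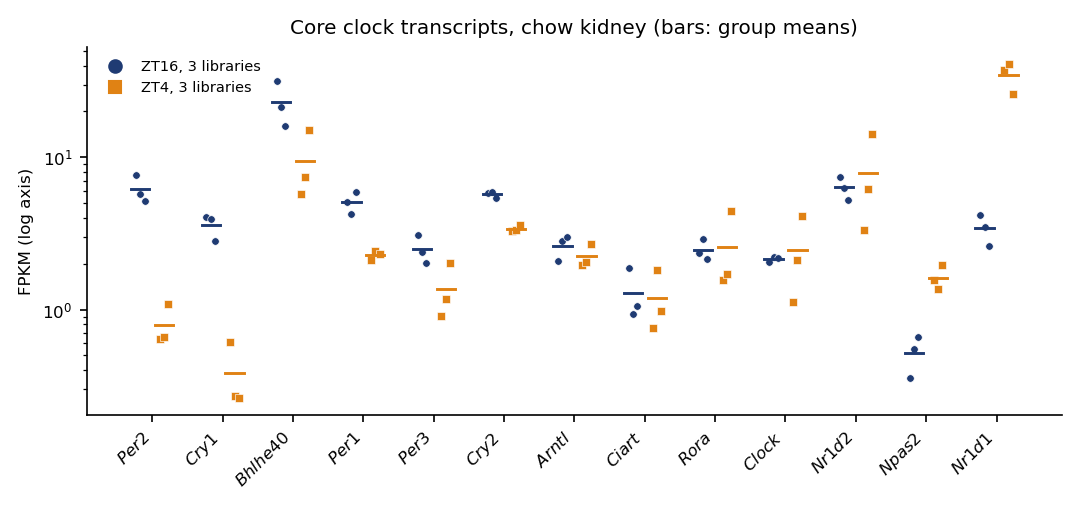
FPKM (log axis) of 13 of the 14 tested core clock genes in each library; circles are the 3 ZT16 and squares the 3 ZT4 libraries, and bars are group means. Per2 and Cry1 sit above their ZT4 values at ZT16, Nr1d1 (mean 3.42 against 34.8 FPKM) and Npas2 sit below them, and Arntl, Ciart, Rora, Clock and Nr1d2 overlap.

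The 6 chow times show where ZT16 and ZT4 lie in the day of each gene, as means of 3 libraries. Per2 had 1.70, 0.797, 3.71, 3.96, 6.19 and 2.06 FPKM at ZT0, 4, 8, 12, 16 and 20, so ZT16 was its highest and ZT4 its lowest sampled time. Cry1 likewise was highest at ZT16 and lowest at ZT4 (2.41, 0.383, 0.932, 1.29, 3.595 and 2.98 FPKM in the same order). Nr1d1 had 12.55, 34.8, 33.6, 25.5, 3.42 and 2.49 FPKM, highest at ZT4 and close to its lowest level at ZT16. Arntl had 9.28, 2.24, 0.329, 0.316, 2.63 and 6.15 FPKM, so both times lay between its high at ZT0 and its low at ZT12. Ciart lay the other way round, at 0.389, 1.18, 10.4, 10.4, 1.28 and 0.361 FPKM. A difference between these times therefore measures the whole sampled range for Per2 and Cry1 and little of it for Arntl and Ciart.

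Of 11 tested clock output genes, 3 rose and none fell, with a median of 0.82, where 0.841% of all tested genes rose. Usp2, which encodes a deubiquitinase, stood at 52.6, 46.0 and 46.9 FPKM at ZT16, against 26.0, 26.8 and 21.6 FPKM at ZT4 (log2 change 0.96, limma adjusted p = 0.00760). Hlf, a PAR bZIP transcription factor, stood at 18.7, 16.4 and 15.5 FPKM at ZT16, against 7.10, 7.68 and 12.5 FPKM at ZT4 (log2 change 0.89, limma adjusted p = 0.00869). Wee1, a kinase that delays entry into mitosis, stood at 4.46, 3.31 and 3.04 FPKM at ZT16, against 0.721, 1.31 and 1.99 FPKM at ZT4 (log2 change 1.20, limma adjusted p = 0.00874). None of these 3 genes overlapped between the times, which holds for every called gene. All 3 calls were lost without ZT16 replicate 1, at limma adjusted p of 0.0521 for Usp2, 0.0604 for Hlf and 0.0621 for Wee1. They were also lost without the adrenal libraries, and with ZT4 replicate 4 left out 5 rose and 1 fell. Dbp, the best known PAR bZIP output gene, did not pass (log2 change -0.66, limma adjusted p = 0.17), at 12.3, 7.08 and 6.89 FPKM, against 12.2, 14.3 and 14.3 FPKM.

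Among chaperones of the cytosol and of the endoplasmic reticulum (ER), 9 of 20 tested genes rose at ZT16 in each list. In each, 11 of 20 did not pass and none fell, where 0.841% of all tested genes rose. In the cytosol, heat shock proteins fold and refold proteins and are induced by heat shock factor 1. In the ER, chaperones fold secreted and membrane proteins and are induced by the unfolded protein response. The medians were 0.56 for heat shock proteins and cochaperones and 0.45 for ER chaperones, against -0.05 over all genes. The groups did not overlap, with ZT16 higher, for 13 heat shock and 10 ER members, and with ZT16 lower for 0 and 1, where all tested genes have 4.16% higher and 12.8% lower.

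The promoters of Hspa5, Creld2, Syvn1 and Cry1 are shown because each holds the motif best known for its group. The ER stress element, CCAAT and CCACG with 9 free bases between them, is the binding site for NF-Y and ATF6 in ER chaperone genes. It was found on either strand in the promoter windows of 3 of 70 higher genes with a window (4.29%), which were Hspa5, Creld2 and Syvn1. It was found in 0 of 134 lower genes and 17 of 8959 tested genes (0.190%). No match was found in the windows, where given, of the other ER members that rose. These were Manf, Hyou1, Herpud1, Pdia4, Dnajb11, Sdf2l1 and Xbp1, so most ER members that rose had no match. The promoter windows run from 250 bases before to 50 bases after the RefSeq start on GRCm38.p6. The bases before the start are printed 5′ to 3′ on the strand of the gene, with the ER stress element in capitals for Hspa5 (chr2:34771840-34772089, plus strand), Creld2 (chr15:88819396-88819645, plus strand) and Syvn1 (chr19:6046326-6046575, plus strand), and the E-box in capitals for Cry1 (chr10:85185055-85185304, minus strand).
Hspa5: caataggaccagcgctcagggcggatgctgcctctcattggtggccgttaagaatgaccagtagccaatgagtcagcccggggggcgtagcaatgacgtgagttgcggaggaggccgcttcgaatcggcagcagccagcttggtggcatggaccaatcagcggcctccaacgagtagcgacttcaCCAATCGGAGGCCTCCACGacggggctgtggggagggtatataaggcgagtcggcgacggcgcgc
Creld2: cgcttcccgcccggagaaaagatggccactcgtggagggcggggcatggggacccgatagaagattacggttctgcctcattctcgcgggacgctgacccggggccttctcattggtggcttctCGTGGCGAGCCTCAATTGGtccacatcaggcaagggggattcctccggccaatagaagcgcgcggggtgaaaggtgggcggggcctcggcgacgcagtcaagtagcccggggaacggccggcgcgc
Syvn1: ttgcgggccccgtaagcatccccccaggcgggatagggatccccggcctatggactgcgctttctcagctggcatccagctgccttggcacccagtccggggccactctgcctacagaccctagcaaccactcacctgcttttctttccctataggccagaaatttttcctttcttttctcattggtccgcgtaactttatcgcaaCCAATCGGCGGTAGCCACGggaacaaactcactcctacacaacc
Cry1: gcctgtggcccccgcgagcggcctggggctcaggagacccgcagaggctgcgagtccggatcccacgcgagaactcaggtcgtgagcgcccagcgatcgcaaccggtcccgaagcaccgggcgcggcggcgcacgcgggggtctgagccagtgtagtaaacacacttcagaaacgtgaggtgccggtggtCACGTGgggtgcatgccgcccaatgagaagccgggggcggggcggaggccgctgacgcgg

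The element lay 65 to 47 bases before the start in Hspa5, 126 to 108 bases before it on the opposite strand in Creld2, and 44 to 26 bases before it in Syvn1. The E-box CACGTG of Cry1 lay 60 to 55 bases before the start, and no E-box match was found for Per2. E-boxes were found in 15.7% of higher, 13.4% of lower and 12.0% of all tested genes with a window. The heat shock element, GAA, TTC and GAA with 2 free bases in each gap, was found in 2.86% of the higher genes with a window (Hsph1 and Chordc1), in 0 of the lower ones and in 0.636% of all. The D-box, TTATGTAA or TTACGTAA, was found in 2.86%, 0 and 0.949% of the same sets, and the element TAGGTCA bound by ROR and REV-ERB in 2.86%, 2.24% and 2.48%. All motifs were searched on both strands, and a match is a description of these letters only.

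Hspa5, the main ER chaperone BiP, stood at 287, 270.1 and 258 FPKM at ZT16, against 103, 91.1 and 147.5 FPKM at ZT4. The means were 272 ± 14.6 FPKM at ZT16 and 114 ± 29.7 FPKM at ZT4 (SD, n = 3 each), 2.39-fold higher, with a log2 change of 1.28 ± 0.17 (SE, limma adjusted p = 0.00204). Every night library lay well above every day library. Creld2, a secreted factor of the ER stress response, stood at 47.7, 53.7 and 51.2 FPKM at ZT16, against 21.0, 18.3 and 17.5 FPKM at ZT4 (log2 change 1.41 ± 0.18, SE, limma adjusted p = 0.00204). Manf, another secreted ER stress factor, stood at 48.2, 49.8 and 55.4 FPKM at ZT16, against 24.6, 17.3 and 17.2 FPKM at ZT4 (log2 change 1.37 ± 0.18, SE, limma adjusted p = 0.00204). Hyou1, an HSP70-like chaperone and exchange factor of BiP, stood at 32.6, 39.0 and 38.6 FPKM at ZT16, against 19.9, 14.2 and 16.1 FPKM at ZT4 (log2 change 1.12 ± 0.15, SE, limma adjusted p = 0.00219). For these 3 genes the lowest night value exceeded the highest day value by more than 1.5-fold.

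The other ER members that rose were Herpud1 (log2 change 0.75), Pdia4 (0.68), Dnajb11 (0.43), Sdf2l1 (0.96) and Xbp1 (0.62), the transcription factor of the IRE1 branch. Syvn1, an ubiquitin ligase of ER-associated degradation that is not on the list, was chosen after its value was seen, for its promoter. It stood at 16.7, 20.2 and 19.5 FPKM at ZT16, against 14.5, 13.5 and 10.9 FPKM at ZT4 (log2 change 0.53 ± 0.12, SE, limma adjusted p = 0.0291). The calls of Hspa5, Creld2, Manf, Hyou1 and Herpud1 held without each single library, and that of Pdia4 was lost without ZT16 replicate 4 (limma adjusted p = 0.0599). Those of Dnajb11, Sdf2l1 and Syvn1 were lost without ZT4 replicate 3 or any 1 ZT16 library (limma adjusted p up to 0.0721, 0.165 and 0.139), and that of Xbp1 without any 1 library other than ZT4 replicate 4 (up to 0.168). Of the 11 members that did not pass, Hsp90b1 came nearest, at 156, 187 and 189 FPKM, against 129.6, 106 and 154 FPKM (limma adjusted p = 0.0806).

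Hsph1, an HSP70 exchange factor of the cytosol, stood at 43.6, 40.1 and 34.0 FPKM at ZT16, against 10.9, 11.8 and 21.1 FPKM at ZT4, with a log2 change of 1.45 ± 0.19 (SE, limma adjusted p = 0.00204). Hspa8, the constitutive HSP70, was the most abundant member, at 2007, 1888 and 1515 FPKM at ZT16, against 757, 695 and 929.8 FPKM at ZT4 (log2 change 1.18 ± 0.20, SE, limma adjusted p = 0.00734). ZT4 replicate 4 was the highest day library for both genes but did not reach the night values. The inducible HSP70 gene Hspa1b stood at 11.8, 10.01 and 4.96 FPKM at ZT16, against 2.01, 1.57 and 2.74 FPKM at ZT4 (log2 change 1.8 ± 0.35, SE, limma adjusted p = 0.0153). Hspa1a had a log2 change of 1.34 (limma adjusted p = 0.0412). These 2 copies are near-identical, so reads can be split between them and each value is uncertain. The remaining members that rose were the HSP40 gene Dnaja1 (log2 change 1.18), Chordc1 (1.21) and the HSP90 partners Stip1 (0.70) and Ahsa1 (0.65), with Hsp90ab1 itself at 0.47. Hsph1 and Ahsa1 kept their calls without each single library. Hspa8 lost its call without ZT16 replicate 1 (limma adjusted p = 0.0502), and Dnaja1 without ZT16 replicate 1 or 4 (0.0639 and 0.0620). Hspa1b, Hspa1a and Chordc1 lost theirs without ZT4 replicate 2 or 3 or ZT16 replicate 1 or 4, at limma adjusted p up to 0.0902, 0.201 and 0.0786. Stip1 and Hsp90ab1 lost theirs without ZT4 replicate 3 or any 1 ZT16 library, at up to 0.104 and 0.148.

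Chaperone counts changed when libraries were left out. Without ZT16 replicate 1 or 4, 2 or 3 heat shock members rose, without ZT4 replicate 3, 4 rose, and without ZT4 replicate 4, 14 rose. For ER chaperones the count was 5 without ZT16 replicate 4 and 16 without ZT4 replicate 4. Without the adrenal libraries 1 heat shock member (Hsph1) and 3 ER members (Creld2, Manf, Hyou1) rose. With the Cyp21a1 level as a covariate 11 and 8 rose.

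**Figure D3:**
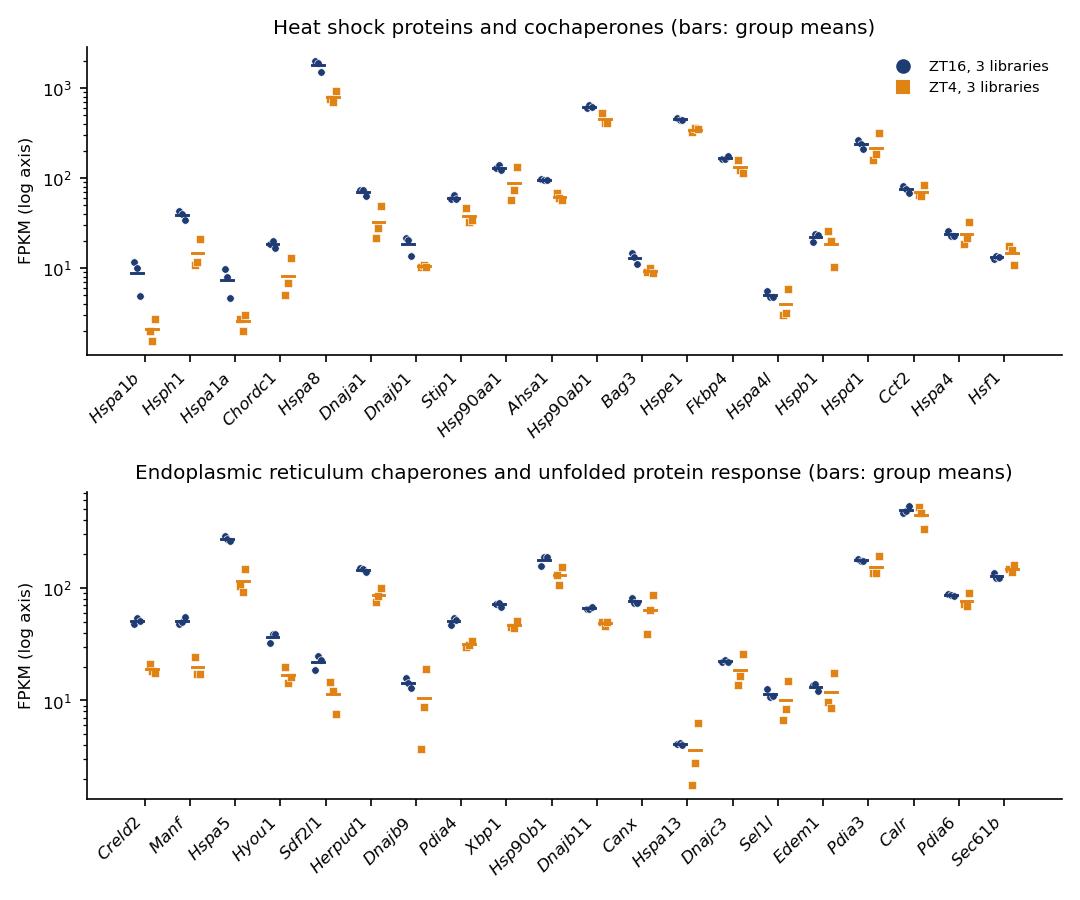
FPKM (log axis) of 20 heat shock proteins and cochaperones (upper panel) and 20 ER chaperones (lower panel) in each library; circles are ZT16, squares are ZT4 and bars are group means of 3. Members are ordered by log2 change, and the groups separate at the left of each panel, as for Hspa5 with means of 272 FPKM at ZT16 and 114 FPKM at ZT4.

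Of 10 tested cold-inducible and related splicing genes 2 fell and none rose (median -0.02), where 1.55% of all tested genes fell. Cirbp, an RNA-binding protein gene whose mRNA is raised by mild cooling, stood at 17.0, 15.1 and 19.5 FPKM at ZT16, against 39.0, 41.2 and 37.3 FPKM at ZT4 (log2 change -1.17 ± 0.18, SE, limma adjusted p = 0.00406). The night values all lay below the lowest day value. Over the 6 chow times Cirbp was lowest at ZT16 (17.2 FPKM) and highest at ZT8 (42.7 FPKM), whereas Hsph1 was highest at ZT16 (39.2 FPKM) and lowest at ZT4 (14.6 FPKM). The Cirbp call was lost without the adrenal libraries (log2 change -1.02, limma adjusted p = 0.0601).

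Among 14 tested glucocorticoid-responsive genes 3 rose (Tsc22d3, Sgk1, Fkbp5) and 1 fell (Mt2), with a median of 0.19. The shares over all tested genes were 0.841% higher and 1.55% lower. Tsc22d3, which encodes the glucocorticoid-induced leucine zipper, stood at 55.5, 45.4 and 46.3 FPKM at ZT16, against 7.27, 11.2 and 11.6 FPKM at ZT4. It was 4.90-fold higher by means, with a log2 change of 2.26 ± 0.35 (SE, limma adjusted p = 0.00477). Sgk1, a kinase that raises sodium uptake in the distal nephron, stood at 32.5, 15.9 and 27.8 FPKM at ZT16, against 4.59, 11.1 and 11.1 FPKM at ZT4 (log2 change 1.49 ± 0.36, SE, limma adjusted p = 0.0438). Fkbp5, a cochaperone of the glucocorticoid receptor, stood at 44.5, 31.7 and 27.6 FPKM at ZT16, against 14.3, 9.90 and 21.2 FPKM at ZT4 (log2 change 1.20 ± 0.28, SE, limma adjusted p = 0.0393). All 3 were separated between the times, as was every called gene. Mt2, a metallothionein that binds zinc, stood at 56.3, 51.5 and 72.2 FPKM at ZT16, against 124, 213 and 99.2 FPKM at ZT4 (log2 change -1.21 ± 0.28, SE, limma adjusted p = 0.0390). Mt2 lost its call under both rescalings, at adjusted p of 0.0628 and 0.0639. The calls of Sgk1, Fkbp5 and Mt2 were each lost without any 1 library other than ZT4 replicate 4, at limma adjusted p up to 0.201, 0.195 and 0.154, and with the Cyp21a1 level as a covariate. That of Tsc22d3 held in these fits and missed the threshold without the adrenal libraries (log2 change 2.08, limma adjusted p = 0.0567), as did Sgk1 (0.0806), Fkbp5 (0.248) and Mt2 (0.246). The adrenal cortex, whose markers differed between these libraries, is itself a steroid-producing tissue, and its part in these 4 genes was not tested further.

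Of 13 tested immediate early genes, which respond to stimuli within minutes, 2 fell, where 1.55% of all tested genes did. Junb, an AP-1 subunit, stood at 2.92, 2.83 and 3.34 FPKM at ZT16, against 6.998, 4.93 and 7.43 FPKM at ZT4 (log2 change -0.96, limma adjusted p = 0.0155). Ier2 had a log2 change of -0.59 (limma adjusted p = 0.0405). Both calls were lost without the adrenal libraries or with GC correction. That of Junb was also lost without ZT4 replicate 2 or ZT16 replicate 1 or 4 (limma adjusted p between 0.0595 and 0.0755), and that of Ier2 without any 1 library other than ZT4 replicate 4 (0.0629 to 0.201).

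Few transport genes of the tubule passed, where 0.841% of all tested genes rose and 1.55% fell. Of 34 proximal tubule transport genes 1 rose, 1 fell and 32 did not pass (median -0.05). Slc13a3, a sodium-coupled dicarboxylate carrier, stood at 330.5, 324 and 329 FPKM at ZT16, against 198, 196 and 180.1 FPKM at ZT4. The means were 328 ± 3.30 FPKM at ZT16 and 191.5 ± 9.88 FPKM at ZT4 (SD, n = 3 each), and the log2 change was 0.77 ± 0.13 (SE, limma adjusted p = 0.00585). The 2 groups were each tight and far apart. Slc20a2, a sodium-phosphate cotransporter, stood at 8.95, 7.59 and 7.93 FPKM at ZT16, against 12.96, 10.98 and 15.8 FPKM at ZT4 (log2 change -0.65, limma adjusted p = 0.0273). Of 40 tested genes of the loop, distal tubule and collecting duct, 3 rose and none fell, and 2 of these are Sgk1 and Tsc22d3. The third was Hsd11b2, the enzyme that inactivates glucocorticoid in aldosterone-responsive cells, at 135, 117 and 130.4 FPKM, against 89.2, 95.6 and 77.5 FPKM (log2 change 0.55, limma adjusted p = 0.0305). The median of this list was 0.25, and 33 of its 40 members were positive. Tsc22d3 alone rose without ZT4 replicate 2 or any 1 ZT16 library, and 12 members rose without ZT4 replicate 4. The calls of Slc20a2 and Hsd11b2 were lost without ZT4 replicate 2 or any 1 ZT16 library, at limma adjusted p up to 0.126 and 0.145, and that of Slc13a3 held without each single library. All 3 of Slc13a3, Slc20a2 and Hsd11b2 missed the threshold without the adrenal libraries (limma adjusted p of 0.0556, 0.0513 and 0.0550).

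Several metabolic genes rose on their own. Alas1, the rate-limiting enzyme of haem synthesis outside red cells, stood at 152, 98.6 and 117 FPKM at ZT16, against 56.2, 47.1 and 36.5 FPKM at ZT4 (log2 change 1.38 ± 0.25, SE, limma adjusted p = 0.00912). Pck1, the cytosolic enzyme that commits carbon to glucose synthesis, stood at 919, 695 and 612 FPKM at ZT16, against 419.7, 288 and 307 FPKM at ZT4 (log2 change 1.13 ± 0.23, SE, limma adjusted p = 0.0162). Their groups did not overlap, as for every called gene. Pck1 was the 1 adipocyte marker of 14 tested that was higher at ZT16. The other 22 tested genes of glucose metabolism did not pass. Slc25a25, a mitochondrial ATP-magnesium/phosphate carrier, stood at 47.0, 24.5 and 29.5 FPKM at ZT16, against 16.6, 5.09 and 8.89 FPKM at ZT4 (log2 change 1.77 ± 0.39, SE, limma adjusted p = 0.0290). Alas1 missed the threshold without ZT16 replicate 1 (limma adjusted p = 0.0643), as did Pck1 without ZT4 replicate 3 or ZT16 replicate 1 or 4 (up to 0.101). Slc25a25 missed it without ZT4 replicate 3 or any 1 ZT16 library (up to 0.152). When the adrenal libraries were left out, Alas1 passed (limma adjusted p = 0.0423), and Pck1 and Slc25a25 did not (0.0635 and 0.0588).

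The gene with the largest rise by the naming rule was Cml5, a member of the Nat8 family of N-acetyltransferases of kidney and liver. It stood at 162, 177 and 156 FPKM at ZT16, against 22.1, 14.2 and 35.5 FPKM at ZT4, 6.91-fold higher by means (log2 change 2.86 ± 0.49, SE, limma adjusted p = 0.00734). Cml3 stood at 60.2, 59.8 and 57.7 FPKM at ZT16, against 16.5, 18.3 and 24.6 FPKM at ZT4 (log2 change 1.58 ± 0.23, SE, limma adjusted p = 0.00352). Nat8 itself stood at 496, 507 and 476 FPKM at ZT16, against 239, 171 and 311 FPKM at ZT4 (log2 change 1.08 ± 0.23, SE, limma adjusted p = 0.0217). All 3 family members were separated between the times, as was every called gene. They are similar in sequence and lie in a cluster, so reads can be split among them and their individual values are uncertain. With Alas1 and the monooxygenase Fmo1 (log2 change 0.67), Nat8 made up the 3 of 24 tested xenobiotic genes that rose, and none fell. The share that rose over all tested genes was 0.841%. Without ZT16 replicate 1 none of the xenobiotic genes rose, and without ZT4 replicate 4, 10 did. The calls of Cml5 and Cml3 held without each single library and were lost without the adrenal libraries (limma adjusted p of 0.0864 and 0.0691), as were those of Nat8 (0.187) and Fmo1 (0.116). That of Nat8 was lost without any 1 library other than ZT4 replicate 4 (limma adjusted p up to 0.0932), and that of Fmo1 without ZT4 replicate 2 or any 1 ZT16 library (up to 0.164).

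Among the genes that fell, Ypel3 had the smallest adjusted p of all, 0.000102 in limma. Ypel3, a growth-inhibitory gene of the yippee family, stood at 37.1, 36.9 and 45.6 FPKM at ZT16, against 95.4, 91.0 and 80.0 FPKM at ZT4, with a log2 change of -1.15 ± 0.11 (SE). It passed under all 22 alternatives, as Nr1d1 did. Tmem86a, a lysoplasmalogenase, stood at 10.6, 12.5 and 12.6 FPKM at ZT16, against 44.6, 30.9 and 33.5 FPKM at ZT4 (log2 change -1.56 ± 0.25, SE, limma adjusted p = 0.00561). Tbxas1, thromboxane synthase, stood at 3.01, 3.03 and 4.53 FPKM at ZT16, against 6.85, 8.33 and 7.21 FPKM at ZT4 (log2 change -1.002 ± 0.149, SE, limma adjusted p = 0.00358). The day values of these genes all exceeded the night values, and their calls held without each single library. Tmem86a and Tbxas1 missed the threshold without the adrenal libraries (limma adjusted p of 0.0595 and 0.0590).

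Scand1, a SCAN-domain gene, had the largest fall under the naming rule after Nr1d1, at 14.8, 9.52 and 12.8 FPKM at ZT16, against 46.0, 24.0 and 85.0 FPKM at ZT4 (log2 change -1.86 ± 0.43, SE, limma adjusted p = 0.0334). Its day values spread widely, and the call was lost without any 1 of the ZT16 libraries or without ZT4 replicate 2 (limma adjusted p between 0.0881 and 0.143). Airn, a long noncoding RNA that overlaps Igf2r on the opposite strand, had a log2 change of -1.76 (limma adjusted p = 0.0126). The library kit does not mark strand, so reads from Airn and Igf2r cannot be told apart in the shared region. The other falls named by the rule were Eif4ebp1, a repressor of cap-dependent translation (log2 change -1.21), Ethe1, a mitochondrial sulfur dioxygenase (-1.09), Asb9 (-1.07), the sulfatase Arsg (-0.95) and the stress gene Nupr1 (-0.95). Ethe1 and Arsg lost their calls without ZT16 replicate 1 (limma adjusted p of 0.0604 and 0.0619), Asb9 without ZT16 replicate 4 (0.0578), and Airn without ZT16 replicate 1 or ZT4 replicate 2 (0.0524 to 0.0790). Eif4ebp1 and Nupr1 lost theirs without any 1 library other than ZT4 replicate 4, at up to 0.106 and 0.216. None of the calls of these 7 genes held without the adrenal libraries, with limma adjusted p from 0.0513 for Scand1 and Airn to 0.228 for Nupr1, and Scand1 also lost its call with GC correction (0.0901) and with the adipocyte covariate (0.0640).

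Of 18 tested collagen and matrix genes 4 fell and none rose, with a median of -0.28, where 1.55% of all tested genes fell. Col3a1, a fibrillar collagen, stood at 4.00, 4.36 and 4.50 FPKM at ZT16, against 6.78, 9.46 and 8.93 FPKM at ZT4 (log2 change -0.88 ± 0.14, SE, limma adjusted p = 0.00594). Col1a1 (log2 change -0.72), Col15a1 (-0.64) and Col4a1 (-0.38) passed with adjusted p between 0.0371 and 0.0488. No collagen of these 4 overlapped between the times, which holds for every called gene. Of the 4, only Col3a1 was called when any 1 library other than ZT4 replicate 4 was left out, under either rescaling, or with a Cyp21a1 or adipocyte covariate, while 7 members fell without ZT4 replicate 4. Without the other single libraries Col1a1, Col15a1 and Col4a1 had limma adjusted p up to 0.176, 0.162 and 0.157. Without the adrenal libraries Col3a1 passed (limma adjusted p = 0.0483) and the other 3 did not (0.255, 0.173 and 0.172). The summed adipocyte markers were also lower at ZT16, and their part in these collagens was tested only by that covariate.

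In other lists few or no genes passed, where 2.39% of all tested genes did. P4ha1, a collagen prolyl hydroxylase on the hypoxia list, rose (log2 change 0.64, limma adjusted p = 0.0171), as 1 of 13. Cox6a1, a cytochrome c oxidase subunit, fell (log2 change -0.60, limma adjusted p = 0.0402), as 1 of 48 oxidative phosphorylation genes, and Wee1 was the 1 of 13 cell cycle genes that changed. The P4ha1 call was lost without ZT4 replicate 2 or 3 or ZT16 replicate 1 or 4 (limma adjusted p up to 0.104), that of Cox6a1 without any 1 library other than ZT4 replicate 4 (up to 0.151), and that of Wee1 without ZT16 replicate 1 (0.0621). P4ha1 and Cox6a1 also lost their calls without the adrenal libraries, with limma adjusted p of 0.146 and 0.200. No member passed among 37 genes of fatty acid oxidation (median 0.02), 23 of fatty acid synthesis (-0.23), 19 of interferon response and antigen presentation (-0.33), 35 ribosomal proteins (-0.03), 28 of ribosome assembly (0.07), 24 of the citric acid cycle (0.05), 25 of NRF2 and glutathione (-0.02), 20 of NAD and kynurenine (0.02), 13 of amino acid stress and serine synthesis (-0.14), 9 of vitamin D and mineral hormones (0.07), 8 of the renin-angiotensin system (-0.14) and 8 of tubular injury (-0.07). The member nearest to passing in these lists was Hmox1, haem oxygenase 1, at 43.4, 40.5 and 41.4 FPKM, against 22.8, 32.1 and 26.1 FPKM (log2 change 0.63, limma adjusted p = 0.0533). Cyp24a1, which inactivates vitamin D, stood at 2.19, 2.53 and 5.54 FPKM at ZT16, against 13.4, 14.2 and 14.3 FPKM at ZT4, without overlap (log2 change -1.98 ± 0.73, SE, limma adjusted p = 0.183).

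**Figure D4:**
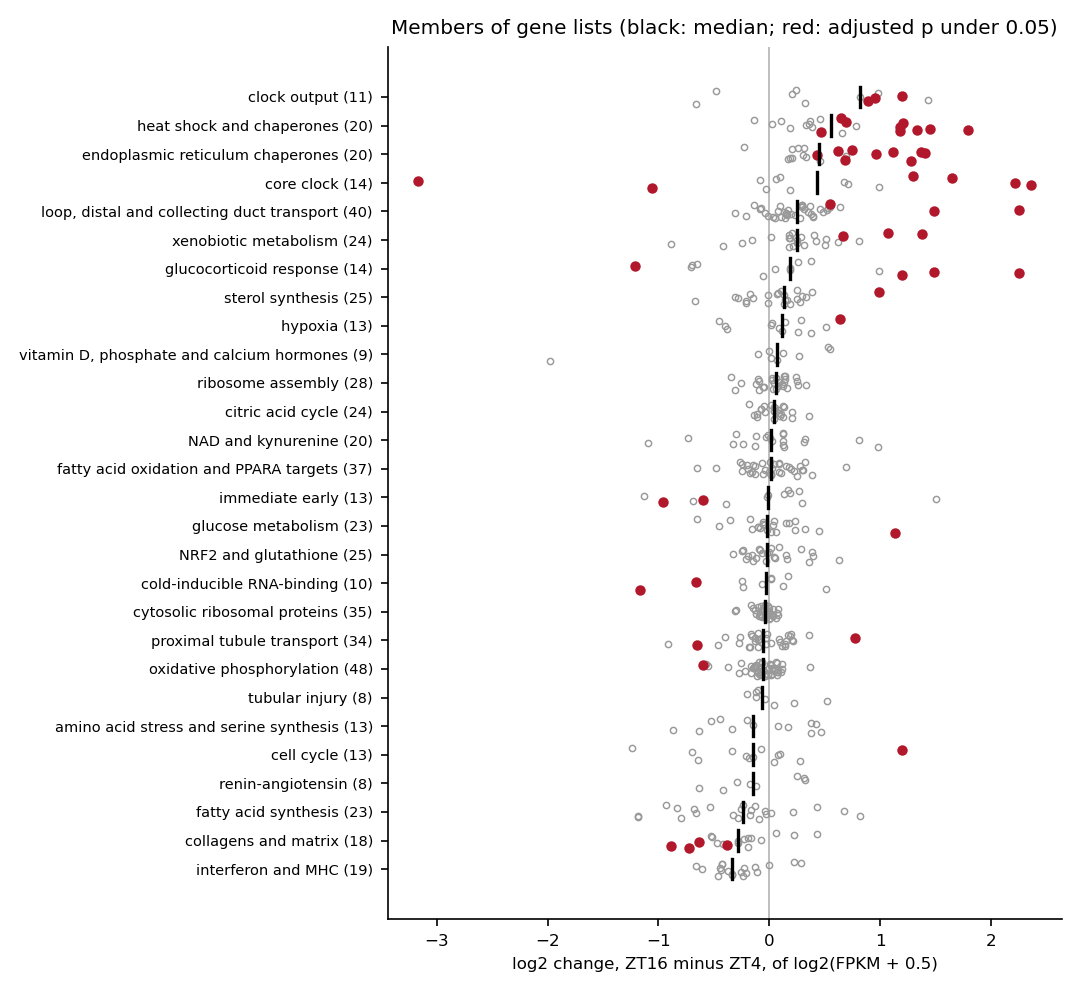
Log2 change (ZT16 minus ZT4, of log2(FPKM + 0.5)) of each tested member of 28 gene lists, ordered by median; points are genes, black ticks are medians, filled red points passed at an adjusted p under 0.05, and numbers in brackets are members tested. Heat shock (median 0.56) and ER chaperones (0.45) carry 9 filled points each to the right, and collagens (-0.28) 4 to the left.

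The same contrast was measured under the high-fat diet, and the difference of the 2 changes was tested over all 36 libraries. It passed for 6 of 11144 genes (0.0538%), and 611 genes (5.48%) passed within the high-fat diet itself, 340 higher (3.05%) and 271 lower (2.43%). The core clock genes Npas2, Arntl and Ciart and the output gene Dbp were among the 6. Npas2 changed by -1.06 ± 0.18 under chow and 0.90 ± 0.19 under the high-fat diet (log2, SE), a difference of -1.95 (limma adjusted p = 0.000900). Its levels were 0.522 ± 0.155 FPKM at ZT16 and 1.62 ± 0.303 FPKM at ZT4 under chow, and 1.38 ± 0.704 FPKM at ZT16 and 0.461 ± 0.0641 FPKM at ZT4 under the high-fat diet (SD, n = 3 each). The night level was thus below the day level under chow and above it under the high-fat diet.

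Arntl changed by 0.19 ± 0.16 under chow and 1.51 ± 0.17 under the high-fat diet (log2, SE), a difference of -1.31 (limma adjusted p = 0.0226). Dbp changed by -0.66 ± 0.23 under chow and -2.60 ± 0.24 under the high-fat diet (log2, SE), a difference of 1.95 (limma adjusted p = 0.0143). Ciart changed by 0.10 ± 0.22 under chow and -1.91 ± 0.25 under the high-fat diet (log2, SE), a difference of 2.01 (limma adjusted p = 0.0143). Under chow these 3 genes did not pass between the times, and under the high-fat diet all 3 did. Ndrg1, a stress-responsive gene of epithelia, had 738 ± 67.1 FPKM at ZT16 and 979 ± 135 FPKM at ZT4 under chow, and 1193 ± 135 FPKM at ZT16 and 618 ± 59.9 FPKM at ZT4 under the high-fat diet (SD, n = 3 each). Slc16a1, a lactate and ketone carrier, had a difference of -1.42 (limma adjusted p = 0.0295). For Per2, Cry1 and Nr1d1 the difference did not pass, with adjusted p of 0.626, 0.871 and 0.765 in limma, which does not show that their changes were alike. Per2 changed by 2.37 under chow and 1.36 under the high-fat diet (log2), and Nr1d1 by -3.17 and -3.53. The count of genes that differed between diets was 17 without chow ZT4 replicate 2, and as low as 2 without high-fat ZT4 replicate 5 or high-fat ZT16 replicate 1 or 4. Without the adrenal libraries it was 3496, with 1 chow ZT4 library left in the contrast.

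**Figure D5:**
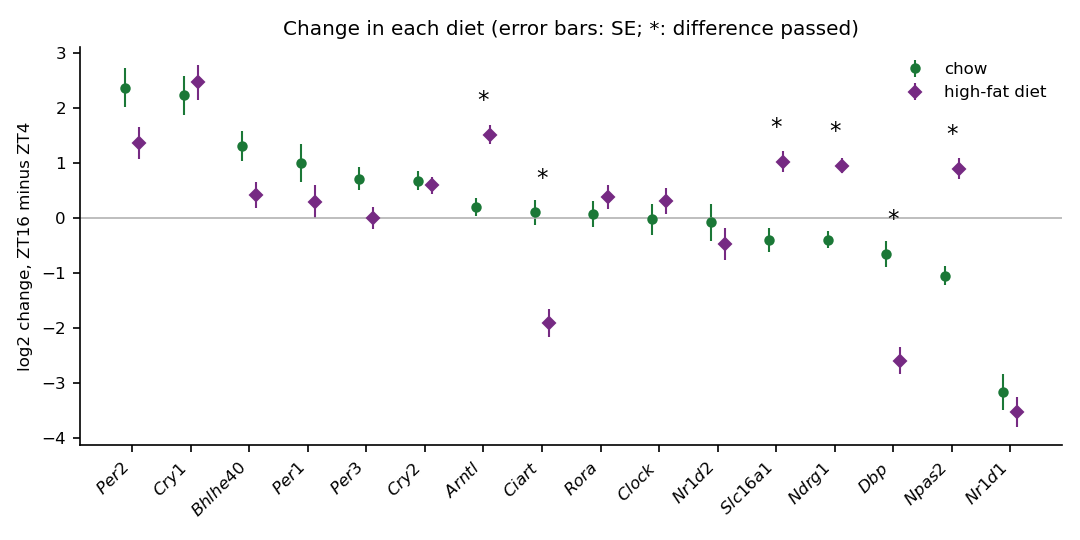
Log2 change (ZT16 minus ZT4) with its SE for 13 of the 14 tested core clock genes and for Dbp, Ndrg1 and Slc16a1 under chow (circles) and the high-fat diet (diamonds); an asterisk marks a difference between diets at an adjusted p under 0.05. Nr1d1 lies at -3.17 and -3.53 in the 2 diets, whereas Npas2 lies at -1.06 under chow and 0.90 under the high-fat diet.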

How the data were processed

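Kidney RNA of 36 libraries was sequenced, 3 per diet and time. The labels' protocols name TRIzol for the extraction of RNA and a TruSeq RNA v2 kit for the libraries. The authors deposited FPKM, 1 table per diet. The tools named in the submitters' processing notes are CASAVA 1.8.2, Bowtie and Cuffnorm, with the build mm10. For Bowtie and Cuffnorm neither the version nor the scaling of libraries is stated in the sources used here. FPKM are not counts, so no count test was run. Rows of repeated symbols, 817 of 280 symbols, could not be told apart and were left out. No pair of libraries held identical values.

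Values were analysed as log2(FPKM + 0.5), which understates changes of low genes, for genes with a mean of at least 1 FPKM. The fit took the 18 chow libraries with 6 group means in limma 3.58.1 (R 4.3.3, mean-variance trend), with the contrast ZT16 minus ZT4, and Benjamini-Hochberg adjustment over the 11174 genes at a threshold of 0.05. All 36 libraries entered the difference between diets. The limma test, the reading of relative depth and the motif search were tested on simulated data. The GC correction, the covariates, the replicate block and the diet difference were not. No adrenal, adipocyte or GC differences between libraries were simulated. Relative depth was read from low values of 2368 genes, 94.0% of which were whole multiples of the smallest value to within 0.05. GC correction took out the dependence of each library on transcript GC content, known for 11115 genes. Gene positions come from GENCODE M21 (GRCm38, of which mm10 is the UCSC name), and promoter windows, given for 8959 tested genes, from RefSeq.

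The text names all core clock genes. Outside these, it names the 12 largest changes per direction with a mean of at least 5 FPKM and no overlap. Up to 4 members by p per list (the nearest where none passed) and the adrenal markers are named too. So are up to 4 genes per direction by p for the diet difference. Unnamed gene models were left out, and some named genes are not reported here. The comparison, lists and tests were chosen with earlier results of these data known. Alternatives were other sets of libraries, other pseudocounts and filters, 2 rescalings, a robust prior, the replicate number as a block, GC correction, adrenal and adipocyte covariates, and leaving out each library. GC correction together with the Cyp21a1 covariate was added after the data were seen.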

Additional observations from a re-analysis of the deposited data

Results flagged for a closer look

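The change between ZT16 and ZT4 differed between chow and the high-fat diet for 6 genes by limma's test of the difference itself, over 36 libraries with Benjamini-Hochberg adjustment. As log2 chow change minus high-fat change, the differences were -1.95 for Npas2, -1.35 for Ndrg1, 2.01 for Ciart, 1.95 for Dbp, -1.31 for Arntl and -1.42 for Slc16a1. Npas2 was lower in all 3 ZT16 libraries than in all 3 ZT4 libraries under chow. Within chow the other 5 genes did not pass. No library of the 6 chow ZT16 and ZT4 libraries could be tested as lying apart from its own group, since groups of 3 are too small for that rule.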

How the results depend on the processing

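The 267 calls at ZT16 against ZT4 were 14 in the 6 libraries alone (8 higher, 6 lower), 687 over all 36 libraries (212, 475), 435 with GC correction (166, 269), 134 without the libraries with adrenal transcripts (17 higher), 176 with the Cyp21a1 covariate (106 lower) and 130 with the adipocyte covariate (59, 71). Leaving out each of the 6 libraries gave 56 to 1674 calls, 24 to 828 higher and 27 to 846 lower. Lower calls were 105 with a mean of at least 5 FPKM, 102 with median-ratio rescaling and 111 with upper-quartile rescaling, where 146 were higher. No paired analysis was possible because the 2 groups share only replicate number 4. Over 26 same-numbered pairs of chow libraries the correlation of deviations had a median of 0.05 (-0.60 to 0.35). Over 109 differently numbered pairs it was -0.02 (-0.58 to 0.59). These overlapping ranges do not settle whether the numbers pair the libraries. With the number as a replicate block across the 18 libraries 4 genes passed (1 higher, 3 lower), and 19 with GC correction and the block (12, 7). The cause of these shifts was not tested. The 6 genes that differed between diets were 3 with a mean of at least 5 FPKM, 2 with the replicate block, 3496 without the adrenal libraries and 2 to 17 with single libraries left out.

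Of 54 named genes past the threshold, 21 stayed past it without each single library, 8 were lost without 1 library, 14 without 2 to 4 in turn, and 11 without any of 5. Over 22 alternatives their 1176 values gave 823 calls in the same direction, 353 below the threshold and none reversed. Fits that only leave out libraries could not reverse a called gene, because its groups did not overlap. Uncalled clock genes near 0 changed sign. Arntl was -0.086 without the adrenal libraries. Clock was 0.012 and 0.022 under median-ratio and upper-quartile rescaling. Rora was -0.077 with the block, -0.091 with GC correction and the block, -0.839 without the adrenal libraries (limma adjusted p = 0.0423), -0.05 and -0.009 with the Cyp21a1 and adipocyte covariates, and -0.071 with GC correction and the Cyp21a1 covariate. With single libraries left out, Clock ranged from -0.40 to 0.36, Nr1d2 from -0.55 to 0.43, Rora from -0.16 to 0.47 and Ciart from -0.13 to 0.35. Absolute depth is unknown, so counting error at low values could not be given.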
